A study of Mus musculus with 4 samples.

Results

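Apolipoproteins, lipoprotein lipase and the proteins of cholesterol export were followed in immune cells of the mouse spinal cord as a set of 10 genes out of the 31053 gene rows of the count matrices. The genes were Apoe, Apoc1, Apoc2, Apoc4, Lpl, Abca1, Abcg1, Nr1h3, Soat1 and Plin2, and each was found by its symbol, which occurred in 1 row. CD45+ cells from the spinal cord of 3-month-old C57BL/6 mice were sequenced by droplet capture (10× Chromium), which tags each captured RNA with a unique molecular identifier (UMI) so that it counts once. There were 4 libraries, 1 per condition: sham surgery with standard dissociation (standard sham), sham surgery with actinomycin D (ActD), an inhibitor of transcription, added during dissociation (ActD sham), and contusion injury (SCI) at 3 and at 14 days post injury (dpi), both also with ActD. Cells of several mice of both sexes were pooled in each library, so that the spread between animals could not be measured and no replicate error stands behind any difference between libraries. The ActD sham is the control of the 3 dpi and 14 dpi libraries, and both comparisons share it.

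Apoe is the main apolipoprotein made inside the central nervous system, where glia secrete it on lipid particles that carry cholesterol between cells. Cells that take up myelin or cell debris can load its free cholesterol onto Apoe particles through the transporters Abca1 and Abcg1. These transporter genes are under control of LXR nuclear receptors (Nr1h3 encodes LXRα). Such cells can also esterify cholesterol with the enzyme Soat1, or store lipid in droplets coated by Plin2. Lpl releases fatty acids from lipoprotein triglycerides, and Apoc2 is its activating cofactor, while Apoc1 and Apoc4 are small exchangeable apolipoproteins whose genes lie beside Apoe.

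The 4 apolipoprotein genes lie on the minus strand of chromosome 7 within 27610 bases (GRCm38, GENCODE annotation), in the order Apoc2 (19671579 to 19677941), Apoc4 (19678083 to 19681479), Apoc1 (19689481 to 19692660) and Apoe (19696109 to 19699188). Of the 813 exonic bases of Apoc2, 646 (79.5%) are shared on the same strand with the read-through gene Gm44805, and of the 2537 exonic bases of Apoc4, 119 (4.69%). A molecule that falls in the shared bases cannot be given to 1 of these genes. Gm44805 held 1 UMI over all barcodes of all 4 libraries, Apoc2 243 and Apoc4 17182, so the level of Apoc2 is uncertain and may be an underestimate.

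The transporter gene Abca1 is a textbook target of LXR, and the start of its gene is shown because it was the 1 member with a match to the repeat that LXR binds. The motif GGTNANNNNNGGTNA, in which N is any base, was searched on both strands in the RefSeq promoter windows of GRCm38.p6 (300 bases each), and 236 of all 32851 windows (0.718%) held it. Windows were found for 7 of the 10 members (10 windows), and 1 of these held a match. The 250 bases before the annotated start of Abca1 (chr4:53159896-53160145, minus strand) are written 5′ to 3′, with the match in capitals.
Abca1 promoter: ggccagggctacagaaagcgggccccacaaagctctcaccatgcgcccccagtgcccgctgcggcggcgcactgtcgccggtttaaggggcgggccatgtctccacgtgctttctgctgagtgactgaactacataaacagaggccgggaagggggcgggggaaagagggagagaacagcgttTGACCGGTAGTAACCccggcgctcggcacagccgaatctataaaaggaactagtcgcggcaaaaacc
The match lies 67 to 53 bases before the start site and reads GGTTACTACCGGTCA on the other strand. It is a description of letters and not of binding, and no reading of LXR was made in these cells.

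The matrices held 2439 to 11631 barcodes with 27447471 to 129935880 UMIs per library. After the filters of the study and the removal of likely doublets, 5035 (standard sham), 2135 (ActD sham), 8214 (3 dpi) and 9078 (14 dpi) cells were left, of which 84.1% to 94.8% had a UMI of Ptprc, the gene of CD45. Each library was clustered on its own, and clusters were called microglia-like, border-macrophage-like (macrophages of meninges and vessels), injury-macrophage-like, B-cell-like and so on from marker genes that exclude the members. For brevity the names are written without "like" from here on. Where 4 values follow each other, they are those of standard sham, ActD sham, 3 dpi and 14 dpi. Microglia numbered 2649, 1598, 865 and 3643, border macrophages 131, 145, 88 and 182, and B cells 732, 64, 133 and 486. Injury macrophages were named at 3 dpi only (3290 cells), and 8.95% to 22.4% of the cells of a library stayed without a name. UMIs were summed per class and library and are given as CPM, the count divided by all UMIs of that class and scaled in the usual way. All intervals are 95% intervals (exact Poisson for levels, exact conditional for ratios, exact Clopper-Pearson for shares) and cover counting error only. Ratios are log2 ratios of CPM, with 0.5 UMIs added to both counts only where either count was 0. A gene was called different between libraries when the ratio was at least 2-fold and its interval excluded 1, provided that both sums together held 20 UMIs or more. Such a call concerns these libraries, not the conditions.

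Limits on the classes touch the values that follow. Summed CPM of 9 microglial markers in microglia were 11585, 20443, 4630 and 9952 and those of 7 injury macrophage markers 254.8, 48.5, 5318 and 502.7. At 3 dpi the macrophage markers thus exceeded the microglial ones in the cells named microglia, and 9 of these 865 cells lacked UMIs of Ms4a7, Pf4, Ccr2 and Arg1 altogether. In B cells of the 3 dpi library, which should lack these macrophage markers, the same 7 genes summed to 2382 CPM, against 0 in B cells of the ActD sham. The B cells of each library are therefore given beside the microglia as a rough measure of RNA picked up from other cells. At 3 dpi B cells had a median of 2512 UMIs per cell and microglia of 20396. RNA picked up may make up a larger share of the UMIs of shallow cells. The CPM, thinned shares and subtracted values of B cells may therefore overstate the background of microglia, which was not tested. The 3 dpi border macrophage cluster was led by Lyve1, Fcna and Cd163, but anchor integration of the libraries placed 84 of its 88 cells with injury macrophages.

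Apoe was higher in microglia of both injury libraries than in those of either sham library. Apoe stood at 2140 CPM in microglia of the standard sham (interval 2120 to 2160), 1801 CPM in the ActD sham (1781 to 1822), 14377 CPM at 3 dpi (14325 to 14430) and 78089 CPM at 14 dpi (78004 to 78174). The 4 intervals did not overlap, both sham libraries were low, and at 14 dpi 7.81% of all microglial UMIs were Apoe. The log2 ratio over the ActD sham was 3.00 at 3 dpi (7.98-fold) and 5.44 at 14 dpi (interval 5.42 to 5.45).

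**Figure D1:**
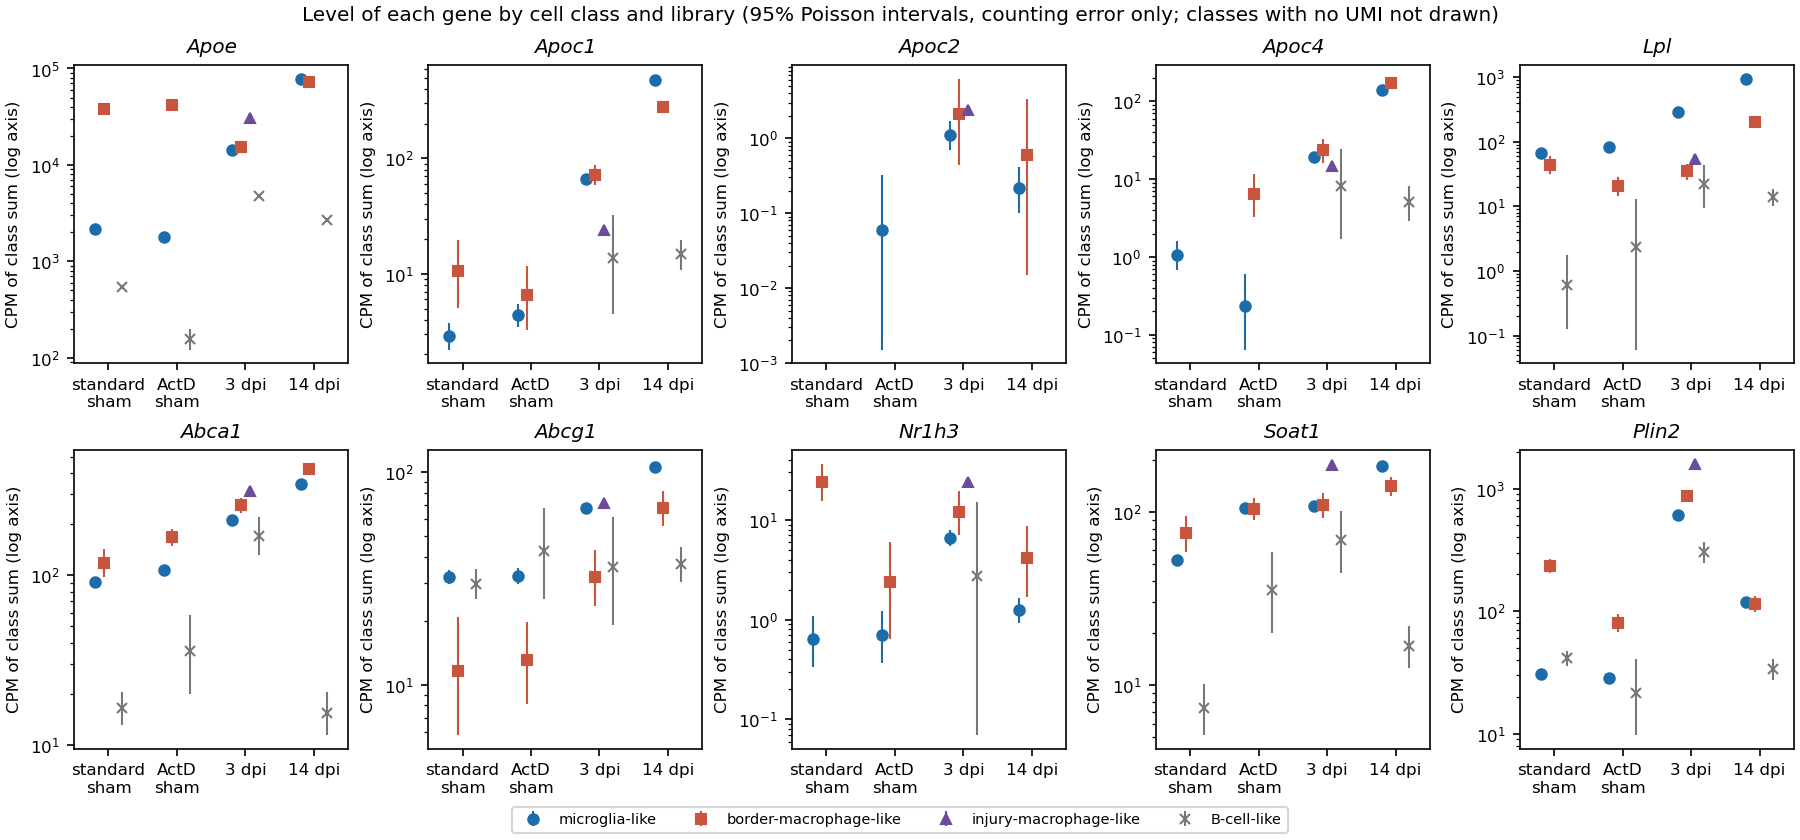
CPM of each of the 10 genes (log axis, 1 panel per gene) by library for microglia, border macrophages, injury macrophages and B cells, with exact 95% Poisson intervals as bars. In microglia Apoe climbs from 1801 CPM in the ActD sham to 78089 CPM at 14 dpi, whereas Plin2 is highest at 3 dpi with 606.1 CPM.

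B cells are not known as a source of Apoe, and their Apoe UMIs are given as the background of each library. Apoe in B cells was 547.3, 156.2, 4730 and 2688 CPM, and 1535 of the 2680 UMIs in the standard sham came from 1 cell (234.4 CPM without it). The level in B cells was highest at 3 dpi, when microglia exceeded it 3.04-fold, against 11.5-fold in the ActD sham and 29.1-fold at 14 dpi. The 3 dpi class was 1 cluster led by Cd79a and Igkc. The 14 dpi class joined 284 cells led by Iglc2 and Ms4a1 (4526 CPM of Apoe) and 202 led by Vpreb1 and Igll1 (1938 CPM). All folds over B cells at 14 dpi depend on this mix, and the first of these clusters was near the 3 dpi level of Apoe. T cells (3454 CPM), NK cells (3855 CPM), dendritic cells (2783 CPM) and neutrophils (5067 CPM) of the 3 dpi library held Apoe at levels near that of its B cells. Among the members with enough UMIs in B cells, 3 of 5 were at least 2-fold higher at 3 dpi than in the ActD sham (Apoe by 4.92 on the log2 scale, Abca1 by 2.27 and Plin2 by 3.83) and 0 lower, where 6.05% of genes were higher and 13.7% lower. With the CPM of B cells subtracted in every library, the log2 ratio of Apoe in microglia at 3 dpi over the ActD sham was 2.55.

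Shares of cells with an Apoe UMI were compared after each cell was thinned to 1000 UMIs, since microglia had a median of 7620 to 20396 UMIs per cell and B cells of 2512 to 5810. An Apoe UMI was then found in 26.7%, 25.6%, 99.0% and 100% of microglia (59.1%, 68.6%, 100% and 100% without thinning), and in 11.1%, 9.38%, 99.2% and 90.5% of B cells (31.1%, 50%, 100% and 100% without thinning). At 3 dpi having an Apoe UMI thus did not set microglia apart from B cells, whereas the number of Apoe UMIs per cell did at both times. The median microglial cell held 0, 0, 11 and 65 Apoe UMIs of 1000, and the median B cell 0, 0, 4 and 3. At least 10 Apoe UMIs of 1000 were held by 3.70%, 3.13%, 59.1% and 96.7% of microglia and by 0.958%, 0%, 9.77% and 4.12% of B cells. The tenth of microglia with the most Apoe held 84.6% and 86.6% of the thinned Apoe UMIs in the sham libraries, and 29.5% and 23.8% at 3 and 14 dpi. Apoe was thus concentrated in few microglia of the sham libraries and spread over nearly all of them at 14 dpi.

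**Figure D2:**
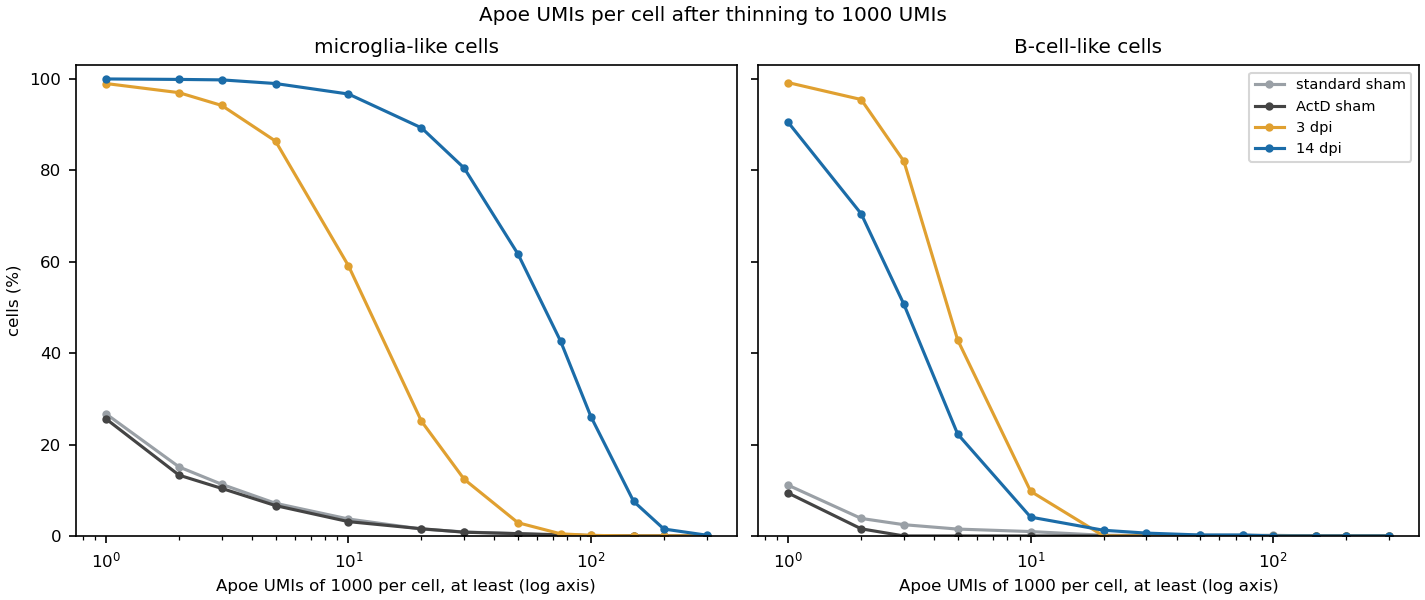
Percent of cells (y axis) with at least a given number of Apoe UMIs among 1000 drawn per cell (x axis), for microglia and for B cells, 1 line per library. At 14 dpi 96.7% of microglia reach 10 UMIs, against 4.12% of B cells of the same library.

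Border macrophages were rich in Apoe in every library. Their Apoe level was 37609 CPM in the standard sham, 42098 in the ActD sham, 15509 at 3 dpi and 73151 at 14 dpi. In the sham libraries this was 17.6-fold (standard) and 23.4-fold (ActD) the microglial level, whereas at 3 dpi the log2 ratio of border macrophages over microglia was 0.11 and at 14 dpi −0.09. Counted over the members, border macrophages exceeded microglia at least 2-fold for 4 of 9 in the standard sham (Apoe, Apoc1, Nr1h3 and Plin2, where 8.55% of genes did), 2 of 7 in the ActD sham (Apoe and Plin2, 8.71%), 0 of 10 at 3 dpi (5.86%) and 1 of 9 at 14 dpi (Nr1h3, 13.5%). Abcg1 in the standard sham (where 9.91% of genes were lower), Lpl and Abcg1 in the ActD sham (10.8%) and at 3 dpi (5.8%), and Lpl at 14 dpi (2.05%) were at least 2-fold lower in border macrophages. Within border macrophages Apoe was lower at 3 dpi than in the ActD sham (log2 ratio −1.44, interval −1.46 to −1.42) and higher by 0.80 at 14 dpi, under the 2-fold limit. The 3 dpi value rests on the 88 cells that integration placed with injury macrophages, and the 14 dpi value turned to −1.04 when classes were taken from the integrated libraries (550 cells). Of these 550 cells, 410 were unnamed in the main classes and 121 were border macrophages there. Injury macrophages of the 3 dpi library held 30548 CPM of Apoe, 2.13-fold the microglia of that library and 6.46-fold its B cells, with a median of 27 Apoe UMIs of 1000 per cell. The injury macrophage clusters ran from 19270 CPM (887 cells led by Ppbp and Ccl24) to 41395 CPM (1118 cells led by Gpnmb and Fabp4).

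Apoc1, which can modify lipoprotein uptake and lipid enzymes, was scarce in sham microglia and abundant at 14 dpi. Apoc1 stood at 2.88, 4.36, 66.8 and 482.8 CPM in microglia (59, 74, 1318 and 20035 UMIs). Of the 74 UMIs in the ActD sham, 46 lay in 1 cell, without which the level was 1.65 CPM. The log2 ratio over the ActD sham was 3.94 at 3 dpi (interval 3.60 to 4.29) and 6.79 at 14 dpi. An Apoc1 UMI was found in 0.0755%, 0.188%, 6.36% and 16.7% of thinned microglia (1.06%, 1.06%, 35.4% and 51.5% without thinning), and in 0%, 0%, 3.01% and 1.65% of thinned B cells. At 14 dpi microglia exceeded B cells 32.6-fold in Apoc1 CPM. Border macrophages held 10.6, 6.5, 71.9 and 279 CPM of Apoc1, and at 14 dpi 197 of 467 UMIs came from 1 cell.

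Apoc4, the neighbour of Apoc2, followed Apoc1 at far fewer UMIs. Microglia held 22, 4, 375 and 5729 Apoc4 UMIs, or 1.07, 0.236, 19.0 and 138 CPM. The log2 ratio over the ActD sham was 6.33 at 3 dpi (interval 4.96 to 8.21) and 9.19 at 14 dpi (7.84 to 11.07), and the wide intervals come from the 4 UMIs of the control. Thinned microglia with an Apoc4 UMI made up 8.88% at 14 dpi, against 0.412% of B cells. B cells held 0, 0, 8.26 and 5.05 CPM of Apoc4. At 3 dpi their interval (1.70 to 24.14) overlapped that of microglia (17.12 to 21.02). In border macrophages Apoc4 was 0, 6.5, 23.5 and 172.9 CPM. Over 25 class sums of all libraries, log2(CPM + 1) of Apoc1 and Apoc4 had a Pearson correlation of 0.92, given as a description because the sums share libraries and free RNA.

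Apoc2, the cofactor of lipoprotein lipase, was near the limit of detection in microglia, with 0, 1, 22 and 9 UMIs. In the standard sham the limit set by 3 counts was 0.146 CPM, and the 3 dpi level was 1.11 CPM. At 3 dpi the count of 22 UMIs against 1 gave a log2 ratio of 4.24 with an interval of 1.61 to 9.61, and the 14 dpi pair was left out for fewer than 20 UMIs. By count, most Apoc2 UMIs lay in the large class of injury macrophages (132 UMIs, 2.38 CPM, interval 1.99 to 2.82). Border macrophages of that library overlapped this level (2.14 CPM, interval 0.44 to 6.24), and neutrophils held 0.931 CPM. B cells held 0 UMIs in every library, but at 3 dpi the upper limit of their interval was 10.2 CPM, above all these levels. Apoc2 shares most of its exonic bases with Gm44805 (79.5%), which touches each of these values.

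Lpl was higher in microglia of both injury libraries than in the ActD sham, and in every library it was higher in microglia than in the macrophage classes, unlike Apoe. Lpl stood at 68.2, 82.6, 289.2 and 940.8 CPM in microglia, which is 3.5-fold the ActD sham at 3 dpi (log2 ratio 1.81, interval 1.72 to 1.89) and 11.4-fold at 14 dpi (3.51, interval 3.43 to 3.59). B cells held 0.613, 2.37, 22 and 13.9 CPM, so that microglia exceeded them 13.1-fold at 3 dpi and 67.8-fold at 14 dpi. Border macrophages held 44.4, 20.7, 34.9 and 202.2 CPM, and the log2 ratio to microglia was −0.62 in the standard sham, under the 2-fold limit, −2.0 in the ActD sham, −3.05 at 3 dpi and −2.22 at 14 dpi. Injury macrophages held 54.3 CPM, 5.32-fold less than microglia of the 3 dpi library. An Lpl UMI was found in 3.13%, 4.26%, 21.4% and 33.5% of thinned microglia (14.1%, 21.0%, 77.0% and 64.2% without thinning), in 0.137%, 0%, 0.752% and 1.65% of thinned B cells, and in 4.29% of thinned injury macrophages.

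Lpl separated the microglial clusters of the 14 dpi library more than Apoe did. At 14 dpi a cluster of 948 microglia led by Ch25h, Nes and Postn held 2101 CPM of Lpl and 80650 CPM of Apoe. A cluster of 714 microglia led by Chst2 held 176.5 CPM of Lpl with 109559 CPM of Apoe. A cluster of 796 microglia led by P2ry12 held the least of both, 66.6 CPM of Lpl and 44786 CPM of Apoe, which is still above the Apoe level of every sham microglial cluster. In the sham libraries a small cluster stood apart in each, with 553.7 CPM of Lpl and 9258 CPM of Apoe in 100 ActD cells led by Ccl4, Spp1, Cst7 and Nes, and 945.9 CPM and 15376 CPM in 64 standard cells led by Spp1, Nes and Cst7. The other sham clusters ran from 28.7 to 52.3 CPM of Lpl (ActD) and from 9.12 to 196.8 CPM (standard). These clusters were formed on the same cells, so their differences are described and not tested. An alternative chosen after the values were seen left out the clusters of the sham and 14 dpi libraries with at least 2 of Spp1, Cst7, Ccl3 and Nes among their 10 leading genes, which were 100 and 64 sham cells and 948 and 210 cells at 14 dpi. With it the log2 ratio of Lpl over the ActD sham was 3.04 at 3 dpi and 2.88 at 14 dpi. The ratio at 14 over 3 dpi was 1.70 with all clusters and −0.16 without these, a fall that follows from their choice, since the cluster with the most Lpl was taken out at 14 dpi and none at 3 dpi.

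**Figure D3:**
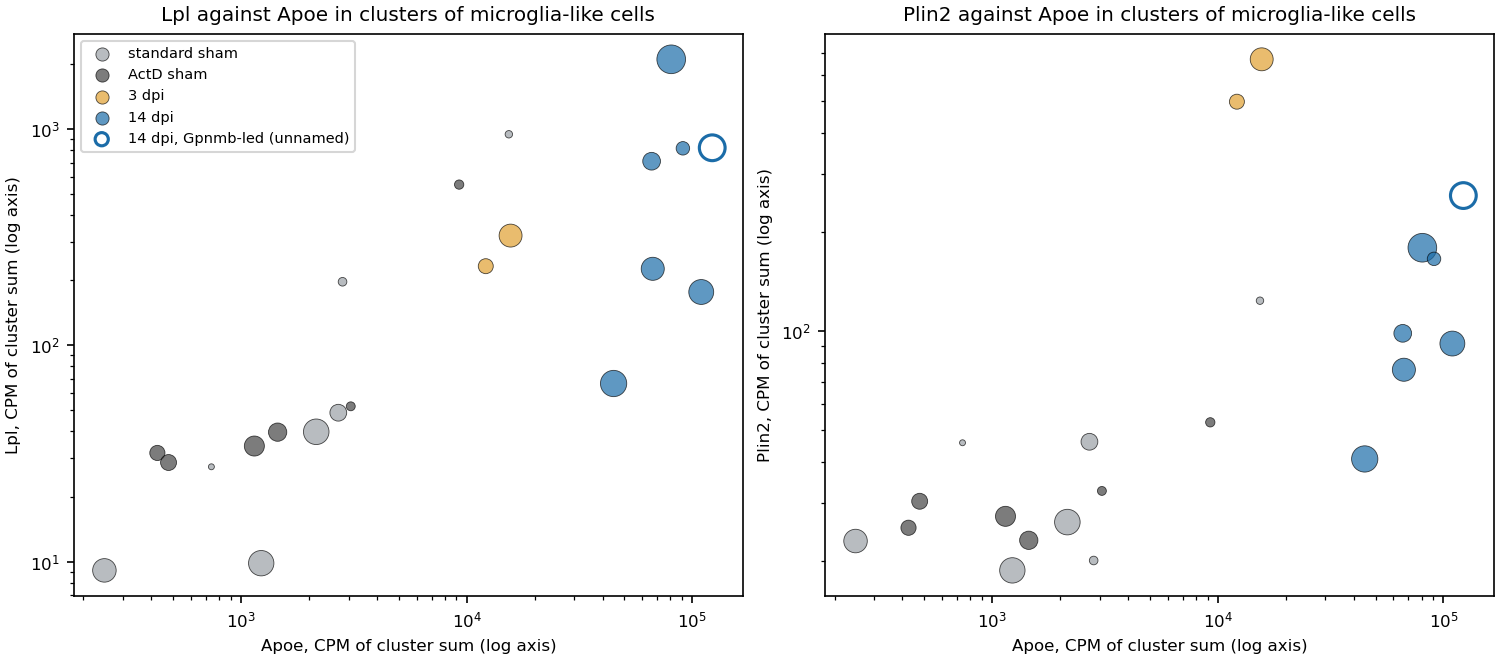
Lpl against Apoe and Plin2 against Apoe in CPM (log axes) for each microglial cluster, coloured by library, with point area in proportion to the number of cells and an open circle for an unnamed Gpnmb-led cluster of the 14 dpi library. The 14 dpi clusters span 66.6 to 2101 CPM of Lpl at Apoe levels between 44786 and 109559 CPM.

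In thinned microglia of the 14 dpi library, 1217 cells with an Lpl UMI were set beside 2420 cells without. Apoc1 was found in 22.8% of the cells with Lpl (interval 20.4 to 25.2%) and 13.7% of those without (12.3 to 15.1%). Plin2 was found in 15.0% and 6.20%, Soat1 in 19.1% and 13.6%, and Apoc4 in 11.6% and 7.52%. Abca1 was found in 27.5% of the cells with Lpl and in 26.9% of those without, and Abcg1 in 11.3% and 9.05%. At 3 dpi the same split gave 185 cells with and 680 without an Lpl UMI, of which 7.03% and 6.18% had Apoc1, 39.5% and 34.7% Plin2, 14.1% and 7.35% Abcg1, and 8.65% and 9.41% Soat1, all with overlapping intervals. Cells of 1 library are not replicates, and these shares describe the 2 libraries.

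Abca1, which moves cholesterol out of the cell onto lipid-poor apolipoproteins, stood at 91.3, 107.0, 210.4 and 342.8 CPM in microglia. Its log2 ratio over the ActD sham was 0.98 at 3 dpi (interval 0.90 to 1.06), just under 2-fold, and 1.68 at 14 dpi (1.61 to 1.75). B cells held 16.5, 35.5, 170.7 and 15.5 CPM, and at 3 dpi the microglial level was 1.23-fold that of B cells, against 22.2-fold at 14 dpi. An Abca1 UMI was found in 16.6% of thinned microglia and 17.3% of thinned B cells at 3 dpi, so the 3 dpi share was not above that of B cells. Neutrophils (120.4 CPM), NK cells (86.7 CPM), T cells (52.6 CPM) and dendritic cells (30.3 CPM) of the 3 dpi library held less Abca1 than its B cells. With the CPM of B cells subtracted, the 3 dpi log2 ratio was −0.84, a value that depends on B cells as the background. At 14 dpi the shares were 27.1% and 2.89%. Injury macrophages held 311.9 CPM of Abca1 (24.8% of thinned cells), and border macrophages 118.5, 167.3, 258.5 and 419.9 CPM.

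Abcg1, which passes cholesterol on to mature particles, was less apart from B cells than Abca1 in every library except that of 3 dpi. At 3 dpi Abca1 stood at 210.4 CPM in microglia and 170.7 CPM in B cells, the smaller gap of the 2 genes. Microglia held 32.1, 32.4, 67.4 and 105.8 CPM of Abcg1, and B cells 29.8, 42.6, 35.8 and 36.9 CPM. The microglial level was below or near that of B cells in both sham libraries and 2.87-fold above it at 14 dpi, while the level of B cells did not follow that of microglia across the libraries. The log2 ratio in microglia over the ActD sham was 1.06 at 3 dpi (interval 0.91 to 1.20) and 1.71 at 14 dpi (1.58 to 1.84). The highest Abcg1 level at 14 dpi was in 37 dendritic cells, with 270.8 CPM (213.4 to 339.0).

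Nr1h3, the LXRα gene, was rare. Microglia held 13, 12, 131 and 52 Nr1h3 UMIs, or 0.634, 0.708, 6.63 and 1.25 CPM, and its log2 ratio over the ActD sham was 3.23 at 3 dpi (interval 2.38 to 4.22) and 0.82 at 14 dpi (−0.10 to 1.87). Nr1h3 was found in 0.578% of thinned microglia and 0.752% of thinned B cells (1 of 133 cells) at 3 dpi. Injury macrophages held 1348 UMIs of Nr1h3 or 24.3 CPM, 3.66-fold the microglia of the library. Border macrophages held 24.3 CPM in the standard sham and 2.37 CPM in the ActD sham, and monocytes at 14 dpi 15.6 CPM. At 14 dpi the Nr1h3 level of microglia was 5.29-fold lower than at 3 dpi, whereas Abca1 and Abcg1 were higher by 0.70 and 0.65 on the log2 scale.

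Soat1, which esterifies cholesterol for storage, had the smallest log2 ratios to the ActD sham of the members tested at both times. Its level stood at 52.8, 105.1, 108.5 and 182.7 CPM in microglia, with a log2 ratio over the ActD sham of 0.05 at 3 dpi (interval −0.05 to 0.14) and 0.80 at 14 dpi (0.72 to 0.87). Its lowest value was in the standard sham, −0.99 against the ActD sham (−1.10 to −0.88). At 3 dpi Soat1 was found in 9.25% of thinned microglia and 8.27% of thinned B cells, and at 14 dpi in 15.4% and 2.68%. Injury macrophages held 185.0 CPM, and border macrophages 75.1, 104.0, 109.0 and 140.0 CPM.

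Plin2, the coat protein of lipid droplets, peaked at 3 dpi in microglia and in border macrophages. Microglia held 30.6, 28.7, 606.1 and 119.1 CPM of Plin2, and border macrophages 232.7, 79.8, 876.6 and 114.8 CPM. The 3 dpi library stood highest in both classes. The log2 ratio in microglia over the ActD sham was 4.4 at 3 dpi (interval 4.27 to 4.53) and 2.05 at 14 dpi (1.92 to 2.19), and the 14 dpi level was 5.09-fold below that at 3 dpi. Injury macrophages held 1577 CPM, with 2264 CPM in 1036 cells led by Hmox1, Cd36 and Arg1 and 889 CPM in the 1118 cells led by Gpnmb and Fabp4, the reverse of the order of Apoe in these 2 clusters. Other classes held Plin2 too, since neutrophils stood at 942.1 CPM at 3 dpi (101.6 CPM in the ActD sham) and B cells at 302.9 CPM (21.3 CPM). At 3 dpi the microglial level was 2.0-fold that of B cells, and Plin2 was found in 35.7% of thinned microglia, 30.8% of thinned B cells, 56.3% of thinned neutrophils and 68.8% of thinned injury macrophages (without thinning 95.6% of microglia, 54.1% of B cells and 99.2% of injury macrophages). The intervals of microglia (32.5 to 39.0%) and B cells (23.1 to 39.4%) overlapped, while those of neutrophils and injury macrophages lay above both. Injury macrophages exceeded B cells 5.21-fold.

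**Figure D4:**
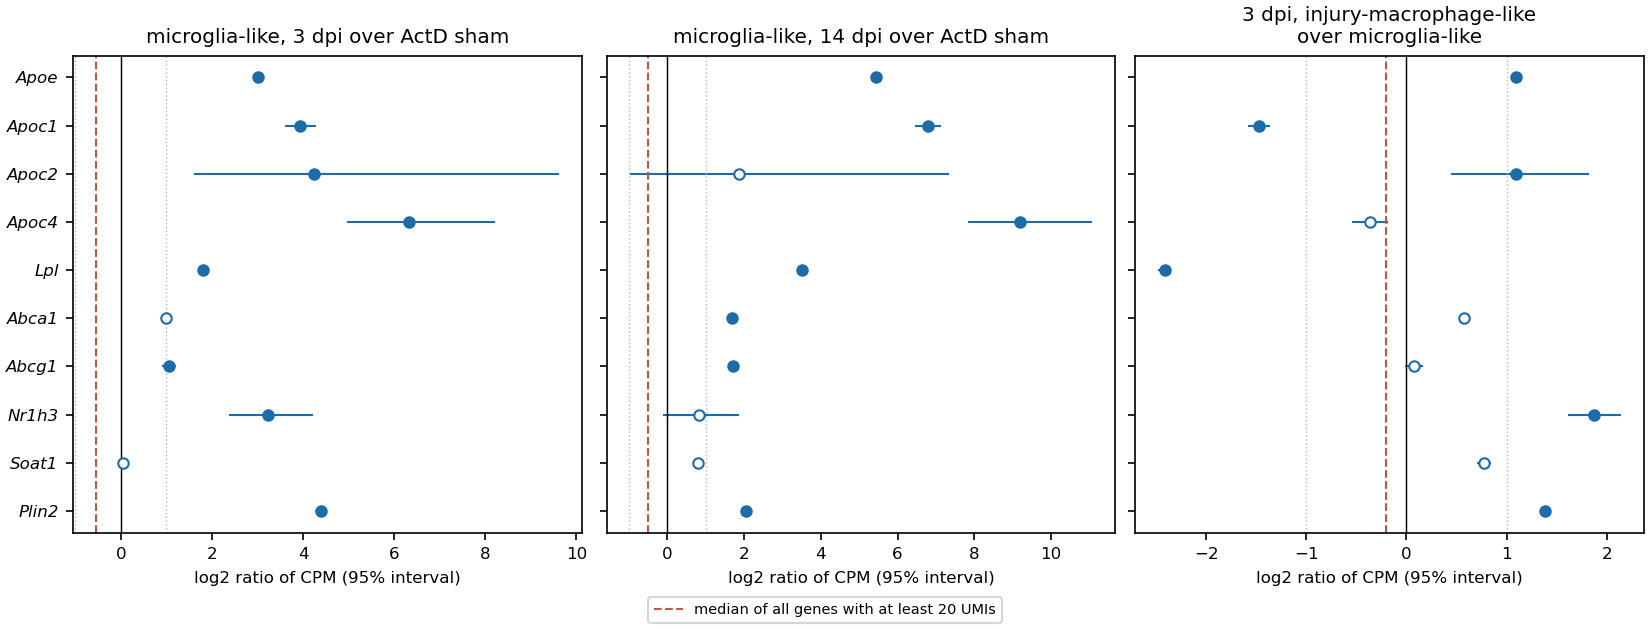
Log2 ratios of CPM with exact 95% intervals for the 10 genes (1 row per gene), in 1 panel each for microglia at 3 dpi over the ActD sham, microglia at 14 dpi over the ActD sham and injury macrophages over microglia at 3 dpi, with filled points for ratios called different and a dashed line at the median of all genes tested. In microglia 8 members at 3 dpi and 7 at 14 dpi were called higher. Apoc2 at 14 dpi also lies to the right (1.88) but was left out for fewer than 20 UMIs.

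Counted together, 8 of 10 members were at least 2-fold higher in microglia at 3 dpi than in the ActD sham and 0 lower, where 14.2% of the 12448 genes tested were higher and 33.6% lower. At 14 dpi 7 of the 9 members with at least 20 UMIs were higher and 0 lower, where 5.2% of genes were higher and 17.9% lower. The median log2 ratio of the members was 3.11 at 3 dpi and 2.05 at 14 dpi, and that of all genes tested −0.54 and −0.51. Scaling by edgeR's TMM factors adds 0.52 and 0.55 to every ratio of these 2 comparisons. Abca1 at 3 dpi (1.5), Soat1 at 14 dpi (1.35) and Nr1h3 at 14 dpi (0.82 before scaling) would then also be called. At 14 dpi over 3 dpi, 4 members were higher (Apoe 2.44, Apoc1 2.85, Apoc4 2.86 and Lpl 1.70) and 3 lower (Apoc2 −2.36, Nr1h3 −2.40 and Plin2 −2.35) of 10, where 11.4% of genes were higher and 14.9% lower. With the CPM of B cells subtracted, 7 members were higher, and the log2 ratio of Abca1 was 3.03 in place of 0.70. The shares of all genes given here are without that subtraction, so none stands beside this count of 7. The value of 3.03 depends on the Abca1 level of B cells at 3 dpi (170.7 CPM), which was above that of T cells (52.6 CPM). In microglia Apoe, Apoc1, Apoc4 and Lpl were thus highest at 14 dpi, and Plin2, Nr1h3 and Apoc2 at 3 dpi. The 3 dpi intervals of Nr1h3 and Apoc2 in microglia overlapped those of neutrophils. Neutrophils also had members higher than in the ActD sham. At 3 dpi these were 7 of 8 with 0 lower, where 45.7% of genes were higher and 8.35% lower. At 14 dpi they were 5 of 8 with 0 lower, where 1.76% of genes were higher and 10.4% lower.

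Members were also compared between the dissociation protocols in microglia of the sham libraries. These libraries differ in the software version of their matrices too, so that protocol and version cannot be told apart. In microglia of the standard over the ActD sham, 1 of 9 members was called higher and 0 lower, where 6.54% of genes were higher and 22.9% lower. This was Apoc4 (log2 ratio 2.18, 22 against 4 UMIs), of whose 22 UMIs 13 lay in 1 cell, and without that cell the level of the standard sham was 0.439 CPM. Soat1 lay just under the limit, with a log2 ratio of −0.99 (interval −1.10 to −0.88), and the count called lower rose above 0 in several alternatives. The log2 ratio of Apoe was 0.25, but its direction was not stable, since it ran from −1.58 (looser cell filter) to 0.80 (TMM scaling) and kept its sign in 13 of 18 alternatives. The median of the members was −0.16 against −0.55 for all genes tested, to which TMM scaling adds 0.55. Of 5 members tested in neutrophils, 2 were higher and 1 lower, where 12.9% of genes were higher and 11.5% lower. Of 5 tested in B cells, 1 was higher and 2 lower, where 8.9% of genes were higher and 8.99% lower.

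In border macrophages, 5 of 9 members were higher at 3 dpi than in the ActD sham (Apoc1, Apoc4, Abcg1, Nr1h3 and Plin2, the last 11-fold) and 1 was lower (Apoe), where 8.8% of genes were higher and 19.0% lower. At 14 dpi 5 of 8 were higher and 0 lower, where 6.94% and 3.89% of genes were, and these were Apoc1 (43.0-fold), Apoc4, Lpl (9.77-fold), Abca1 and Abcg1. The log2 ratio of Abca1 was 1.33 and turned to −0.10 with classes from the integrated libraries. Oligodendrocyte markers in border macrophages summed to 222.3 CPM in the ActD sham and 1256 CPM at 14 dpi, fibroblast markers to 339.3 and 1707 CPM, and neutrophil markers to 445.2 and 3058 CPM. Their microglial markers summed to 3849 CPM in the ActD sham and 4596 CPM at 14 dpi. Their own border macrophage markers summed to 8539 and 4708 CPM, so at 14 dpi the 2 sums were nearly equal. At 3 dpi injury macrophage markers in border macrophages summed to 15936 CPM (3316 in the ActD sham), above the 10672 CPM of the border macrophage markers. The part of these cells in the ratios was not tested. At 14 over 3 dpi, 5 of 9 were higher (Apoe 2.24, Apoc1 1.96, Apoc4 2.88, Lpl 2.53 and Abcg1 1.08) and 2 lower (Nr1h3 −1.53 and Plin2 −2.93), where 17.9% of genes were higher and 6.81% lower. In the standard over the ActD sham, 3 of 8 were higher (Lpl 1.10, Nr1h3 3.36 and Plin2 1.54) and 0 lower, where 4.97% of genes were higher and 15.9% lower. Within the 3 dpi library, injury macrophages had 4 of 10 members higher than microglia (Apoe, Apoc2, Nr1h3 and Plin2) and 2 lower (Apoc1 and Lpl), where 6.03% of genes were higher and 14.6% lower. Of the 865 microglia of that library, 226 had fewer than 2 UMIs of 6 proliferation genes. Against these no member was called higher in injury macrophages, the log2 ratio of Apoe being 0.39. Such a cut on UMIs may favour cells of low depth, which was not tested. By cluster, 606 microglia led by Gpr34 and Fcrls held 15650 CPM of Apoe and 259 led by Mki67 held 12149 CPM, against 30548 CPM in injury macrophages.

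A wider view was taken over 52 other genes of lipid handling in 5 lists, of which 46 had at least 20 UMIs in the microglial pairs. At 3 dpi 11 of the 46 were at least 2-fold higher than in the ActD sham and 8 lower, and at 14 dpi 5 were higher and 3 lower. Over all genes tested, 14.2% were higher and 33.6% lower at 3 dpi, and 5.2% and 17.9% at 14 dpi. The median log2 ratio over these genes was −0.22 at 3 dpi and −0.31 at 14 dpi, against −0.54 and −0.51 for all genes tested. In B cells at 3 dpi over the ActD sham, 6 of the 19 list genes with enough UMIs were higher and 0 lower, where 6.05% of genes were higher and 13.7% lower. The 3 dpi values of the lists, like those of the members, thus stand beside a background that also differed.

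Of 9 measured genes for lipoprotein uptake and remodelling, 2 were higher and 2 lower at 3 dpi, and 1 higher and 2 lower at 14 dpi. Among all genes tested 14.2% were higher and 33.6% lower at 3 dpi, and 5.2% and 17.9% at 14 dpi. Pltp, which transfers phospholipids between lipoproteins, was higher at both (log2 ratio 2.11 at 3 dpi and 2.11 at 14 dpi), and the receptor gene Lrp8 at 3 dpi (2.65). Apod, another lipid carrier, was lower at both (−3.21 and −3.53), as was the transporter gene Abca9 (−3.81 and −1.25). Abca7, a lipid transporter related to Abca1, had a ratio of −0.07 at 14 dpi. Among 5 measured genes for the maturation and control of Lpl, the inhibitor gene Angptl4 was higher, with 2, 118 and 24 UMIs in the ActD sham, 3 dpi and 14 dpi libraries (log2 ratio 5.66, interval 3.78 to 8.73, and 2.29, interval 0.28 to 5.42). Furin, a protease that cleaves Lpl, was higher at 3 dpi (1.22), and Lmf1 (−0.79 and −0.36), Lmf2 (−0.38 at 14 dpi) and Sel1l (−0.76 at 3 dpi), which help Lpl fold and leave the endoplasmic reticulum, passed the limit in neither direction.

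Of 13 measured LXR partners and other LXR targets, 2 were higher and 3 lower at 3 dpi, and 1 was higher and 0 lower at 14 dpi. Among all genes tested 14.2% were higher and 33.6% lower at 3 dpi, and 5.2% and 17.9% at 14 dpi. Ch25h, whose product makes the LXR ligand 25-hydroxycholesterol, stood at 1.77, 58.0 and 157.6 CPM in microglia of the ActD sham, 3 dpi and 14 dpi libraries (log2 ratio 5.04 and 6.48). Smpdl3a, a phosphodiesterase gene induced by LXR, was higher at 3 dpi (1.28), and the sterol hydroxylase gene Cyp27a1 (−2.77) and Mylip (−1.64), which encodes a ligase that marks lipoprotein receptors for degradation, were lower there. Nr1h2, the LXRβ gene, had ratios of −0.87 and −0.53, and at 14 dpi the desaturase gene Scd2 stood at 0.88, the phospholipid enzyme gene Lpcat3 at −0.72 and the LXR partner gene Rxrb at −0.62. The genes of this list that passed the limit at 3 dpi did so in both directions, as did those of all genes tested.

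Of 12 measured genes for sterol esters and droplet turnover, 4 were higher and 2 lower at 3 dpi, and 1 higher and 1 lower at 14 dpi. Among all genes tested 14.2% were higher and 33.6% lower at 3 dpi, and 5.2% and 17.9% at 14 dpi. Hilpda (2.87) and G0s2 (2.08), which inhibit the droplet lipase, were higher at 3 dpi and had ratios of −0.45 and 0.05 at 14 dpi, the same order over time as Plin2. In B cells 3 of 4 measured genes of this list were also higher at 3 dpi (Hilpda 1.94, Nceh1 2.68 and Lipa 1.57), where 6.05% of genes were. Neutrophils of the 3 dpi library held 805 CPM of G0s2, against 6.99 CPM in microglia. Nceh1, which hydrolyses cholesterol esters, was higher at both times (1.60 and 1.85), and Lipa, the lysosomal acid lipase, had a ratio of 0.65 at 14 dpi. The lipase genes Mgll (−3.13 and −1.91) and Lipe (−1.96 and −0.95) had their ratios below 0, past the limit for both at 3 dpi and for Mgll at 14 dpi. Of 7 measured genes for the exit of sterol from lysosomes, Gramd1b was higher at both times (1.89 and 1.43), Stard3 was lower at 3 dpi (−1.70), and Npc1 (−0.70 at 3 dpi), Gramd1a (−0.73 at 14 dpi) and Npc2 (0.08 and 0.99) stayed under 2-fold.

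**Figure D5:**
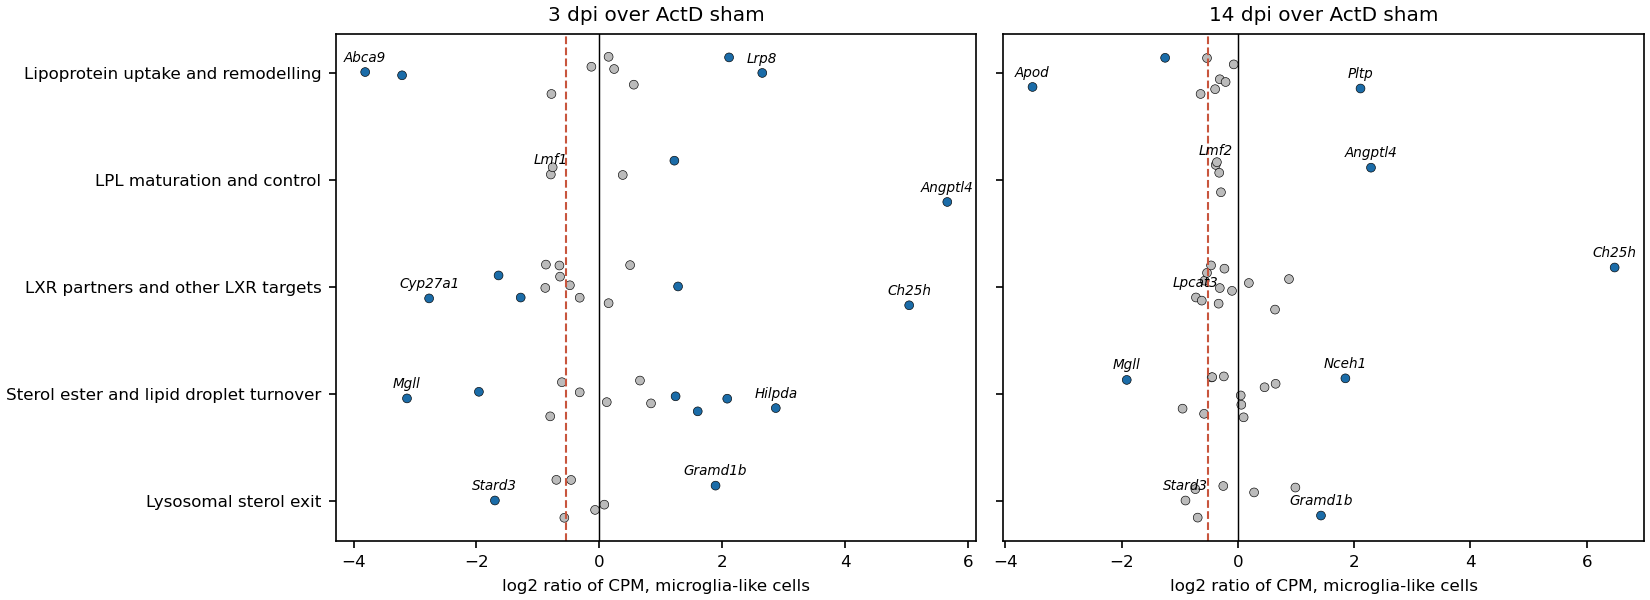
Log2 ratios of CPM in microglia at 3 dpi and at 14 dpi over the ActD sham (x axis) for the genes of 5 lists of lipid handling (y axis), with genes called different in blue and a dashed line at the median of all genes tested. Ch25h lies far to the right in both panels (5.04 and 6.48), and Abca9, Apod and Mgll lie to the left.

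The genes whose levels were most like those of a member were ranked over the 25 class sums among 12010 genes, by the Pearson correlation of log2(CPM + 1). For Apoe they were Igf1 (0.946), Cxcl14 (0.876) and Axl (0.862), for Lpl Ank (0.877), Nes (0.864) and Syngr1 (0.863), for Abca1 Tpp1 (0.908), Slc38a7 (0.902) and Slc23a2 (0.892), and for Plin2 Gm47428 (0.893), Ftl1 (0.876) and Cstb (0.868). Among the members, Apoe correlated with Abca1 at 0.83 and with Lpl at 0.79, and Nr1h3 with Plin2 at 0.79, whereas Abcg1 and Plin2 had a correlation of 0.12. The sums come from 4 libraries and share the free RNA of each, so these correlations carry no test.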

How the data were processed

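The values in each of the 4 matrices are UMI counts as deposited, per gene and barcode, for which the submitters' processing notes name Cell Ranger and mm10. No values were normalized, and 0 columns were left unused. The matrix headers carry software version 3.0.1 (standard sham, 3 dpi) or 3.1.0 (ActD sham, 14 dpi). Cells of 600 or more genes and no more than 10% mitochondrial UMIs were kept, cells that held Itgam together with a lymphoid marker were removed (26 to 870 per library), and so were the cells with the highest doublet scores (42 to 931, scanpy 1.11.5), at 0.8% per 1000 cells. Clusters (2000 variable genes, 30 components, resolution 1.0) were named where at least 3 markers reached 25% of cells, by thresholds set after clusters were seen. Class sums of fewer than 50 cells entered no ratio. Between 3 and 36 barcodes were shared by a pair of libraries. Alternatives used Seurat 5.3.0 and edgeR 4.0.16 in R 4.3.3. The interval script was tested on simulated data. The members and lists were chosen with earlier results of these data known. Named genes are the members, the 3 most like genes of 4 members (at least 200 UMIs) and the extreme genes of each list. Protein sequences were not used here.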

Additional observations from a re-analysis of the deposited data

Results flagged for a closer look

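Apoe at 3 dpi over the ActD sham moved in opposite directions in 2 classes. The log2 ratio was 3.00 in microglia and −1.44 in border macrophages, and the difference between them was not tested, since each class had 1 library per condition. The border macrophage value rests on 88 cells of the 3 dpi library and 145 of the ActD sham, and ran from −1.96 to −1.22 over the alternatives that gave a value, while the microglial value ran from 2.55 to 3.78. Integration placed 84 of the 88 cells with injury macrophages, and 2 of 7 alternative clusterings named border macrophages at 3 dpi. Their injury macrophage markers (15936 CPM) exceeded their border macrophage markers (10672 CPM), so the −1.44 may compare unlike cells.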

How the results depend on the processing

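With 1 library per condition, intervals cover counting error only, and neither the spread between animals nor that of the software version (shared by the ActD sham and 14 dpi libraries, and by the other two) could be measured. Of 24 alternatives, 4 were chosen after seeing the data, and each applied to some of the results. The log2 ratio to the ActD sham in microglia ran from 5.13 to 6.15 for Apoe at 14 dpi, from 2.88 to 4.06 for Lpl at 14 dpi (18 alternatives each) and from 4.18 to 5.26 for Plin2 at 3 dpi (17). No paired analysis was possible because each condition had 1 library.

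Among ratios called different, directions turned for Apoc4 in microglia of the standard over the ActD sham (−1.38 with Seurat integration, −1.39 with the looser cell filter and −0.85 in male cells), for Abca1 in border macrophages at 14 dpi over the ActD sham (−0.10 with integration) and for Lpl in microglia at 14 over 3 dpi (−0.16 without the clusters with at least 2 of Spp1, Cst7, Ccl3 and Nes among their leading genes, which takes the most Lpl out at 14 dpi only). With integration, 410 of the 550 border macrophages at 14 dpi were unnamed in the main classes and 121 were border macrophages there. For Apoc4 and Abca1, the cause was not tested. Ratios that were not called also changed sign, among them Apoe (−1.58, looser filter, main 0.25) and Plin2 (lowest −3.98, main 0.09) in microglia of the standard over the ActD sham, Apoe in border macrophages at 14 dpi (−1.04 with integration, main 0.80), and, with the B cell level subtracted, Abca1 at 3 dpi in microglia (−0.84, main 0.98) and in border macrophages (−0.58, main 0.63).

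In microglia of the standard over the ActD sham, the count of members called higher (1) became 0 with integration, the looser filter, male cells, cells without macrophage UMIs, those clusters left out, means over cells and the highest cell left out, and 2 with the B cell level subtracted. The count called lower (0) became 4 with the looser filter, 3 in male cells, 2 with integration and in cells without macrophage UMIs, and 1 with the stricter filter, in cells low in proliferation genes and with the B cell level subtracted. Border macrophages at 14 dpi over the ActD sham had 1 member lower with integration (0 otherwise), and at 3 dpi 3 higher in male cells (5). Injury macrophages over microglia had 1 member lower with the stricter filter (2), and 0 higher against microglia low in proliferation genes and 2 with means over cells (4). Microglia at 14 over 3 dpi had 7 members higher with the B cell level subtracted (4). These counts under alternatives stand without the share of all genes, so they describe the members alone.

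The share of microglia with an Apoe UMI moved to 36.6% and 36.3% (standard and ActD sham) and 100% (3 dpi) when thinned to 2000 UMIs, and to 59.1%, 68.6% and 100% without thinning. With a minimum of 200 UMIs, list genes called lower in microglia at 14 over 3 dpi fell to 3 (5), and in border macrophages those called higher and lower became 4 and 2 at 3 dpi (8 and 5) and 3 and 1 at 14 dpi (8 and 2). Of the 20 genes most like Apoe, 11 stayed with ActD libraries only and 10 by Spearman rank. For Lpl these counts were 12 and 8, and for Abca1 11 with ActD libraries only. Among results that answer a comparison, 241 values moved little and 37 moved, and among single genes 863 moved little, 524 moved, sign changes of uncalled ratios included, and 5 called ones turned.

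Border macrophages at 3 dpi over the ActD sham gave no value with integration, at resolutions of 0.6 and 2.0, with the stricter filter, without doublet removal and in female cells, and microglia at 3 dpi gave none in cells without macrophage UMIs (9 cells).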

Other observations

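A cluster of 764 cells of the 14 dpi library, led by Gpnmb and Ms4a7, was given no name by the rule for classes. It held more of most members than the named microglia of that library, with 122561 CPM of Apoe, 1021 of Apoc1, 404.2 of Apoc4, 471.2 of Abca1, 156.6 of Abcg1, 273.3 of Soat1 and 257.8 of Plin2, while its Lpl level of 819.2 CPM was below theirs.

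Microglia were also split by sex-linked transcripts into cells called male and female, which come from different animals of 1 pool. Apoe in male and female microglia was 77461 and 78890 CPM at 14 dpi and 15030 and 12984 CPM at 3 dpi. Lpl at 14 dpi was 1087 and 849.1 CPM, and Apoc1 was 396.2 and 600.6 CPM.

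Monocytes of the 14 dpi library (338 cells) held 7771 CPM of Apoe, 52.5 of Lpl, 218.5 of Soat1 and 174.0 of Plin2. T cells of the ActD sham held 3265 CPM of Apoe, of which 777 of 790 UMIs came from 1 cell, and 57.9 CPM without it.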
